A study of Mus musculus with 16 samples.

Results

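The cardiac myosin heavy chain genes Myh6, Myh7 and Myh7b and the miRNA genes that lie within them, Mir208a, Mir208b and Mir499, were followed in the mouse ventricle over the first weeks of life. These 6 genes were chosen by name from the 53801 genes of the deposited count table, with earlier results of these data known. All 6 had counts in every library and passed the filter on low counts, as did 10742 genes in all.

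The data came from ventricular tissue of male and female C57BL/6JOlaHsd pups with no genetic change and no treatment, taken on postnatal day 1 (P01), day 4 (P04), day 9 (P09) or day 23 (P23). Milk was the only food of the P01, P04 and P09 pups, whereas those of P23 could also eat general mouse diet. Age and diet therefore cannot be told apart in comparisons with P23. Each time point had 4 hearts with 1 small RNA library each, 16 libraries in all, and the time points were compared with each other in all 6 pairs. The study asked how small RNAs change between days on which the mouse heart can still regenerate and days on which it cannot. Libraries are named here by the number in the name of their column of the count table, which could not be tied to the replicate number in the sample title, and the sex of each pup was not given.

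Myosin heavy chains are the motor proteins of the thick filament, and they turn ATP hydrolysis into shortening of the sarcomere. The adult mouse ventricle relies on the fast alpha chain encoded by Myh6, whereas the fetal ventricle relies on the slower beta chain encoded by Myh7, and the exchange around birth is known to depend on thyroid hormone. Myh7b is an ancient relative of both that is transcribed in heart and slow skeletal muscle. Each of the 3 genes carries a miRNA in an intron, which is cut out of the host transcript, and the encoded family is known in mice to act on myosin gene expression and on the response of the heart to stress.

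All positions are those of GRCm38.p6 in the RefSeq annotation. Myh6 lies at chr14:54941921-54968017 on the minus strand and holds Mir208a at chr14:54949060-54949142. Myh7 lies upstream of it on the same strand at chr14:54970684-54994626, with 2666 bases between the 2 genes, and holds Mir208b at chr14:54975700-54975776. Myh7b lies on the plus strand at chr2:155611243-155634307 and holds Mir499 at chr2:155622880-155622958. Every miRNA has the strand of its host.

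The mature miRNAs known to carry most of the activity of these hairpins are shown from RefSeq because they share most of their seed across the 3 hosts, with the seed (bases 2 to 8) in capitals.
miR-208a-3p: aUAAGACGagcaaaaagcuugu
miR-208b-3p: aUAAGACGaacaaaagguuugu
miR-499-5p: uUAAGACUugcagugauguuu
The seed UAAGACG of miR-208a-3p and miR-208b-3p was held by only these 2 of 1679 mature mouse miRNA names in the table. Counted from the 5′ end, miR-208b-3p differs from miR-208a-3p by G10A, A16G and C18U, none of them in the seed. The seed of miR-499-5p, UAAGACU, was held by no other name and shares the run UAAGAC of 6 bases with both.

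The hairpins are shown because the deposited counts are per miRNA gene, so that reads from both arms (in capitals) fall into 1 value.
Mir208a: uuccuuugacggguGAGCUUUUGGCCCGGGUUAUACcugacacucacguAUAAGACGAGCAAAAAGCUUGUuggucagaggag
Mir208b: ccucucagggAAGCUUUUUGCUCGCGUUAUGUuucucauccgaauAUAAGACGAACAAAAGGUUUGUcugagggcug
Mir499: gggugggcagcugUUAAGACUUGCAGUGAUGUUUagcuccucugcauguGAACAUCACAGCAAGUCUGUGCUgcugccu
The mature arms of Mir208a and Mir208b differ at 3 positions on the 3p side and at 6 positions on the 5p side, so reads shortened to a shared stretch could have been placed at either gene, and how the counting treated such reads is not given in the sources used here.

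Total counts were 2301587 to 5553530 per library, with a median of 4069954.5. Mitochondrial genes took 17.6% to 19.7% of the counts at P01 and 40.9% to 44.1% at P23, and miRNA genes took 2.12% to 4.54% over all libraries. Levels are given in CPM, the usual unit of read counts divided by library size, with the library sizes scaled by TMM, a method that sets the bulk of genes level between libraries. The myosin mRNAs were seen through fragments caught by a small RNA kit, and levels of different genes were not compared because no exon lengths were used. A gene was called where the adjusted p of edgeR's quasi-likelihood test was under 0.01 and the fold change was over 1.8, which is 0.85 on the log2 scale. Beside counts of called genes, the share of all 10742 tested genes called in that direction is given as background. From P01 to P23, for which most lists are given, 13.5% of all tested genes rose and 16.6% fell.

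The samples carried the markers of heart muscle cells at every age. All 12 cardiomyocyte markers were detected, with a summed level of 8139 to 8883 CPM at P01, 9885 to 11617 CPM at P04, 13690 to 15943 CPM at P09 and 16384 to 22018 CPM at P23, and 7 of the 12 rose from P01 to P23 (13.5% of all tested genes). In tissue, more cells of a type and more RNA per cell cannot be told apart, and the part of cell composition in the values below was not tested. Atrial markers summed to 130 to 185 CPM at P01, 36.0 to 143 CPM at P04, 40.6 to 207 CPM at P09 and 37.8 to 103 CPM at P23. Of the 12 skeletal muscle markers Myog was at 0 in all libraries, and the list summed to 104 to 127 CPM at P01, 107 to 135 CPM at P04, 133 to 175 CPM at P09 and 155 to 256 CPM at P23. Most of that sum was Ckm, the muscle creatine kinase that heart also expresses, which rose from 87.0 CPM ± 7.97 (SD, n = 4) at P01 to 198 CPM ± 42.2 at P23, whereas the other tested skeletal markers, Myl1 and Myod1, fell (16.1 CPM ± 3.09 to 6.01 CPM ± 0.961 and 9.06 CPM ± 1.53 to 0.691 CPM ± 0.350). Of the 4 atrial markers tested, Myl4 fell from P01 to P23 and none rose. From P01 to P23, none of 5 endothelial markers was called in either direction, of 7 fibroblast markers 2 rose and 1 fell, and all 5 erythroid markers rose. Of 4 smooth muscle markers 3 were tested and 2 rose, and of 4 leukocyte markers 3 were tested and 1 rose. Of all tested genes 13.5% rose and 16.6% fell. The P23 libraries held the highest sum of leukocyte markers (23.3 to 28.9 CPM against 9.59 to 11.7 CPM at P01) and the most erythroid signal (1234 to 1639 CPM against 347 to 366 CPM at P01). Most of the leukocyte rise was Lyz2, from a mean of 3.32 CPM at P01 to 17.4 CPM at P23. Csf1r (log2 fold change 0.21 ± 0.25, edgeR, adjusted p = 0.498) and Ptprc (1.03 ± 0.52, adjusted p = 0.103) were not called, so the sum does not show a rise of leukocyte markers in general.

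**Figure D1:**
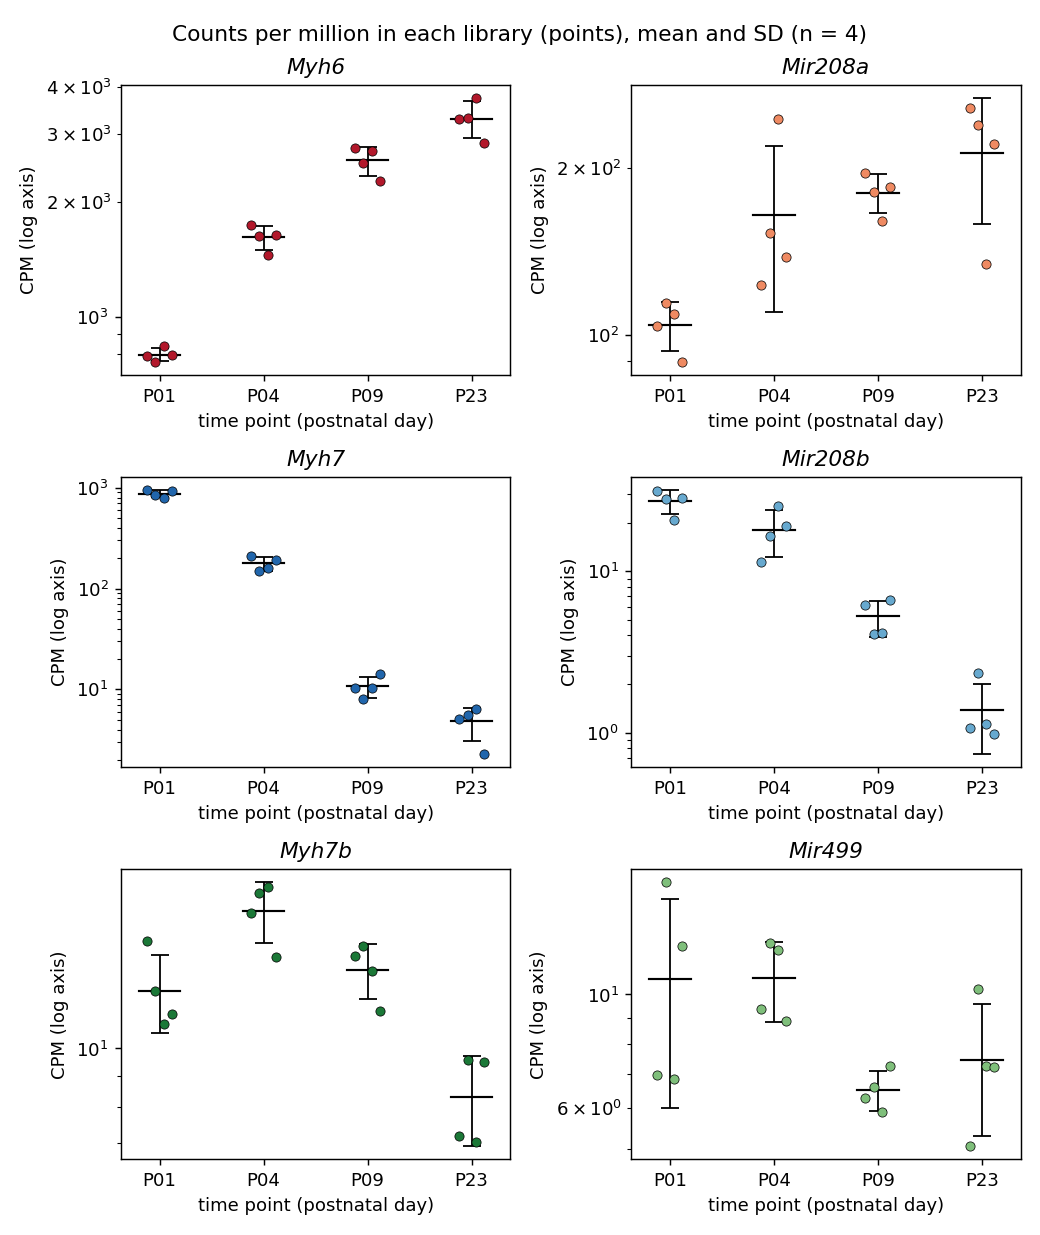
CPM (log axis with its own range in each panel) of the 6 genes in each library at P01, P04, P09 and P23. Points are libraries, horizontal lines are means and error bars are SDs (n = 4); Myh6 climbs and Myh7 and Mir208b descend over the 4 days, while the libraries of Mir499 at P01 spread from 6.85 to 16.5 CPM.

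Myh6, the alpha chain, rose at the first interval and went on to 4.14 times its P01 mean. Its level was 787, 762, 839 and 795 CPM in P01 replicates 1, 5, 6 and 8, and 1736, 1623, 1450 and 1637 CPM in P04 replicates 1, 3, 4 and 6. It was 2764, 2519, 2707 and 2266 CPM in P09 replicates 2, 3, 4 and 5, and 3292, 3321, 3733 and 2847 CPM in P23 replicates 1, 5, 6 and 8. No library of one day overlapped with a library of another day, so that the 4 days stood in the order of age. The log2 fold change was 1.02 ± 0.15 (SE) in P04–P01 (edgeR, adjusted p = 7.84e-06) and 2.05 ± 0.15 in P23–P01 (adjusted p = 1.40e-12). In P09–P04 it was 0.67 ± 0.15 (adjusted p = 0.00177), which is under the fold threshold, and in P23–P09 it was 0.36 ± 0.15 (adjusted p = 0.0685), so neither later interval was called on its own, although P09–P04 was called with scaling on miRNA genes (1.13, adjusted p = 3.06e-04). With libraries scaled on the summed cardiomyocyte markers, which moved the median of all genes by -0.36 to -1.18 on the log2 scale, the rise of Myh6 was 0.66 in P04–P01 (adjusted p = 0.0110) and 0.25 in P23–P04 (adjusted p = 0.212), and neither was called. The P23–P01 rise was then 0.91 (adjusted p = 8.69e-05) and was still called.

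Myh7, the beta chain, fell in all 6 comparisons and had the deepest fall of the group. Its level was 943, 843, 796 and 921 CPM in the P01 replicates 1, 5, 6 and 8 and 212, 150, 162 and 190 CPM in the P04 replicates 1, 3, 4 and 6. It was 10.4, 7.95, 10.4 and 14.1 CPM in the P09 replicates 2, 3, 4 and 5 and 5.06, 5.60, 6.33 and 2.30 CPM in the P23 replicates 1, 5, 6 and 8. The days did not overlap, and the means of P04, P09 and P23 were 20.4%, 1.22% and 0.551% of the P01 mean.

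The fall of Myh7 was not spread evenly over the intervals. The log2 fold change was -2.30 ± 0.19 in P04–P01 (edgeR, adjusted p = 3.02e-10), -4.05 ± 0.21 in P09–P04 (adjusted p = 8.95e-15) and -1.12 ± 0.21 in P23–P09 (adjusted p = 1.71e-04). On the log2 scale the largest step of the 3 thus lay between day 4 and day 9. The intervals are not equally long, so these steps are not rates. In CPM most of the loss came by P04, with means of 876 at P01, 178 at P04 and 10.7 at P09. Of the 10742 genes tested, Myh7 had the smallest p-value in P09–P04 and in P09–P01, where its log2 fold change was -6.35 ± 0.23 (edgeR, adjusted p = 3.58e-19). Among the 2902 genes with a mean count of at least 50, its fall was the 4th largest in P09–P01 and the 5th largest in P09–P04. At P23 Myh7 rested on 7 to 28 counts per library. With every library thinned to 2301587 counts the P23–P09 change kept its size (-1.12) but was no longer called (edgeR, adjusted p = 0.0732). Why the call was lost was not tested.

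Myh7b moved little beside the other myosins. Its level was 15.0, 12.4, 11.0 and 11.4 CPM at P01, 16.7, 18.0, 18.4 and 14.1 CPM at P04, 14.2, 14.8, 13.4 and 11.5 CPM at P09 and 7.19, 9.56, 7.01 and 9.51 CPM at P23, in the same order of replicates. P23 lay below all other days, while P01, P04 and P09 overlapped. It was called in P23–P04 alone, with a log2 fold change of -1.02 ± 0.16 (edgeR, adjusted p = 6.07e-06), and the fall of 0.58 on the log2 scale in P23–P01 (adjusted p = 0.00646) was under the fold threshold. With libraries scaled on miRNA genes alone the P23–P04 change was -0.73 (edgeR, adjusted p = 0.0105) and was not called, whereas P23–P09 (-0.90, adjusted p = 0.00373) and P09–P01 (0.89, adjusted p = 0.00101) were. With scaling on cardiomyocyte markers P23–P09 (-1.05, adjusted p = 7.10e-05) and P23–P01 (-1.71, adjusted p = 2.54e-08) were called as falls.

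Mir208a, the miRNA of Myh6, was higher after P01, and at P01, P04 and P23 it varied more between libraries, relative to its mean, than its host did. Its level was 104, 114, 109 and 89.6 CPM at P01, 123, 153, 245 and 138 CPM at P04, 196, 181, 161 and 185 CPM at P09 and 257, 240, 135 and 221 CPM at P23. Every later library lay above all P01 libraries, but the 3 later days overlapped among themselves, with P04 replicate 4 high and P23 replicate 6 low. The log2 fold change was 0.66 ± 0.19 in P04–P01 (edgeR, adjusted p = 0.0219) and 0.79 ± 0.19 in P09–P01 (adjusted p = 0.00187), neither of them called with all libraries, and 1.03 ± 0.19 in P23–P01 (adjusted p = 6.89e-05), which was called. The P09–P01 rise was just past the fold threshold, and called, without P01 replicate 5 or without P09 replicate 4 (0.85 in both). With scaling on miRNA genes both were called, at 0.91 in P04–P01 (adjusted p = 0.00206) and 1.57 in P09–P01 (adjusted p = 2.62e-08). The P23–P01 rise depended on what the libraries were scaled to: it was 1.58 with scaling on miRNA genes and -0.08, not called, with scaling on the summed cardiomyocyte markers. These scalings moved the median of all genes in P23–P01 by 0.60 and -1.18 on the log2 scale.

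Mir208b, the miRNA of Myh7, fell with its host, with its called intervals after P04. Its level was 31.5, 28.0, 20.9 and 28.4 CPM at P01 and 11.4, 16.5, 25.2 and 19.2 CPM at P04, and these days overlapped. It was 6.15, 4.09, 4.15 and 6.62 CPM at P09 and 1.07, 2.33, 1.13 and 0.984 CPM at P23, with no overlap between these days or with the earlier ones. The log2 fold change was -0.59 ± 0.20 in P04–P01 (edgeR, adjusted p = 0.050, not called), -1.77 ± 0.22 in P09–P04 (adjusted p = 2.53e-06) and -1.88 ± 0.33 in P23–P09 (adjusted p = 7.79e-05). With scaling on cardiomyocyte markers the P04–P01 change was -0.93 (adjusted p = 0.00510) and was called as well. From P01 to P23 the log2 fold change was -4.24 ± 0.29 (adjusted p = 1.50e-12), and the P23 mean was 5.06% of the P01 mean. The P23 libraries held only 3 to 10 counts of Mir208b each.

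Mir499, the miRNA of Myh7b, was not called in any of the 6 comparisons. Its level was 6.96, 16.5, 6.85 and 12.4 CPM at P01, 9.35, 12.6, 12.2 and 8.90 CPM at P04, 6.28, 6.59, 5.91 and 7.26 CPM at P09 and 5.06, 10.3, 7.24 and 7.21 CPM at P23. P09 lay below P04 in every library, and all other pairs of days overlapped. The log2 fold change was -0.73 ± 0.22 in P09–P04 (edgeR, adjusted p = 0.0229) and -0.48 ± 0.25 in P23–P01 (adjusted p = 0.107), under the fold threshold in both, at 19 to 61 counts per library. The P09–P04 change missed the adjusted p threshold in the fit of all libraries, although these days did not overlap. The P09–P01 change of -0.69 ± 0.24 (adjusted p = 0.0244) was called once P01 replicate 6 was left out, at -0.86 (edgeR, adjusted p = 0.00770), and with every library thinned to the same total, at -0.90 (adjusted p = 0.00781). With scaling on cardiomyocyte markers Mir499 fell in P09–P04, P09–P01, P23–P04 and P23–P01, by 1.16, 1.47, 1.31 and 1.62 on the log2 scale.

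**Figure D2:**
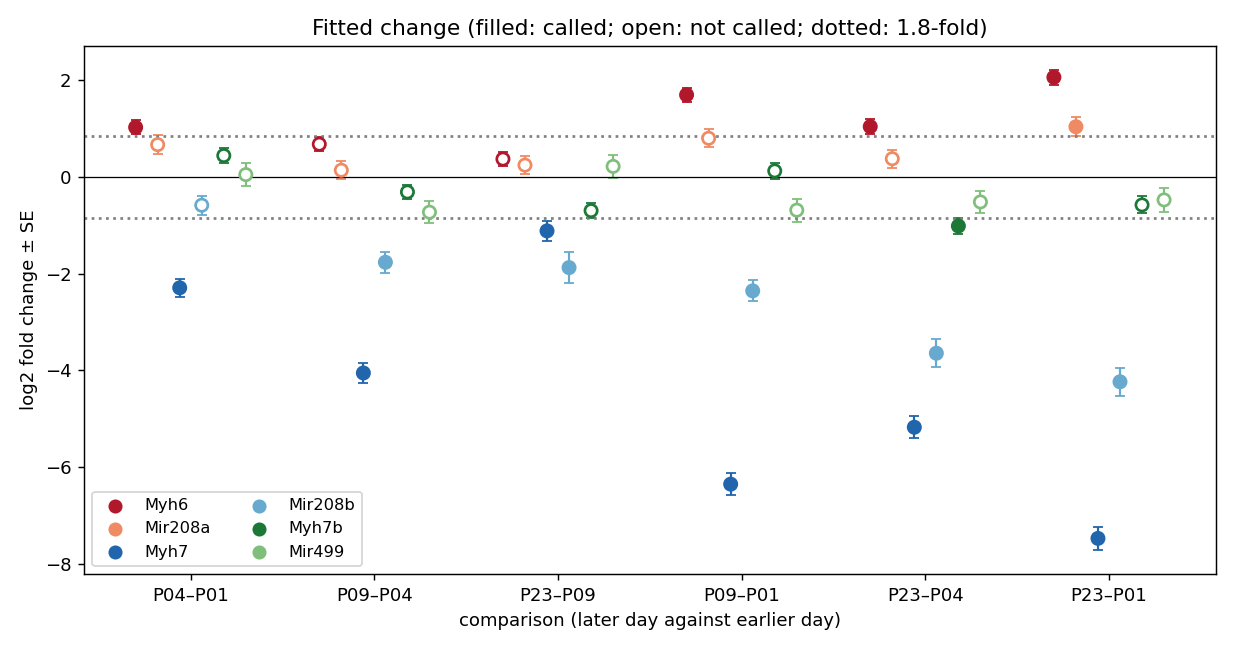
Fitted log2 fold changes ± SE (edgeR, 16 libraries) of the 6 genes in the 6 comparisons, each as the later against the earlier day. Filled points were called (adjusted p under 0.01 and over 1.8-fold, dotted lines) and open points were not; Myh7 reached -7.47 in P23–P01 and is filled in every comparison, while Mir499 is open in all.

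Counted over the group, 1 of the 6 genes rose (Myh6) and 1 fell (Myh7) in P04–P01, where 1.07% of all tested genes rose and 4.13% fell. In P09–P04 none rose and 2 fell (Myh7 and Mir208b), against 1.4% and 3.71% of all genes. In P23–P09 again none rose and the same 2 genes fell, against 4.76% and 5.55%. In P09–P01 Myh6 rose and Myh7 and Mir208b fell, against 6.18% and 11.5%. In P23–P04 Myh6 rose and Myh7, Myh7b and Mir208b fell, against 9.55% and 12.6%. In P23–P01 Myh6 and Mir208a rose and Myh7 and Mir208b fell, against 13.5% and 16.6%. The genes were chosen as a known switch, and these counts describe 6 genes of 3 loci that share transcripts, not 6 separate observations.

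The exchange of Myh7 for Myh6 was followed as the Myh7 share of the summed counts of both genes, which does not depend on library scaling. The share was 54.5%, 52.5%, 48.7% and 53.7% at P01 and 10.9%, 8.48%, 10.0% and 10.4% at P04. It was 0.376%, 0.315%, 0.382% and 0.618% at P09 and 0.153%, 0.168%, 0.169% and 0.0806% at P23. The mean fell from 52.3% ± 2.57 (SD, n = 4) to 9.94% ± 1.03, 0.423% ± 0.134 and 0.143% ± 0.0422, and no 2 days overlapped. Each of the 6 pairs of days gave p = 0.0286 in a two-sided exact permutation test, the smallest value that 4 libraries against 4 allow (adjusted p = 0.0286 over 6 tests). On the log2 scale the ratio of Myh7 to Myh6 changed by -3.32 in P04–P01, by -4.74 in P09–P04 and by -1.58 in P23–P09. A constant difference in transcript length drops out of these changes. How reads matching both genes were counted is not given in the sources used here. At P23 the share rested on 7 to 28 Myh7 counts per library beside 8682 to 16502 Myh6 counts, so a few misplaced reads could alter it.

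The miRNAs showed an exchange in the same direction between Mir208b and Mir208a. The Mir208b share of the counts of both was 16.1% to 24.1% at P01 and 8.44% to 12.2% at P04, then 2.21% to 3.46% at P09 and 0.413% to 0.963% at P23, again with no overlap. It fell less than the host share: from P01 to P09 the mean went from 20.8% to 2.81% for the miRNAs and from 52.3% to 0.423% for the hosts. The difference between these paired falls was taken up through the ratio of each miRNA to its own host.

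**Figure D3:**
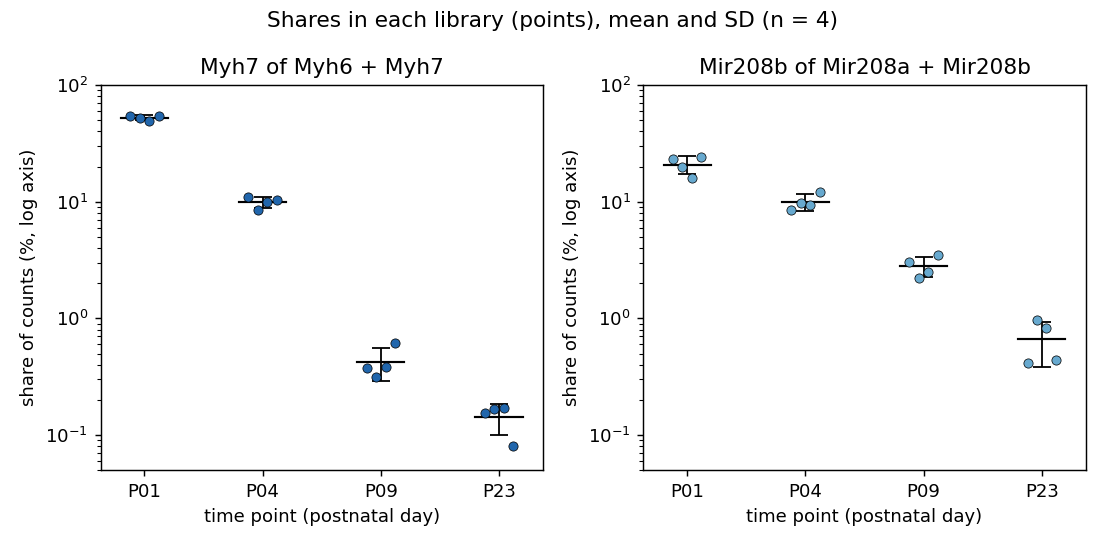
Myh7 share of the summed Myh6 and Myh7 counts (left) and Mir208b share of the summed Mir208a and Mir208b counts (right), in percent on a log axis. Points are libraries and lines with bars are means ± SD (n = 4); the host share starts at 52.3% and ends at 0.143%, the miRNA share starts at 20.8% and ends at 0.663%.

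Relative to its host, Mir208b rose as Myh7 fell. The log2 ratio of Mir208b to Myh7 counts was -4.90, -4.90, -5.24 and -5.01 at P01 and -4.20, -3.18, -2.67 and -3.30 at P04. It was -0.76, -0.94, -1.31 and -1.08 at P09 and -2.12, -1.22, -2.37 and -1.10 at P23. P09 libraries lay 3.99 above P01 libraries in the mean, which is 15.9 times more Mir208b counts per Myh7 count, without overlap. The two-sided exact permutation p was 0.0286, the smallest possible, in P04–P01, P09–P04, P09–P01, P23–P04 and P23–P01. The adjusted p over the 18 ratio tests was 0.0571 in each of these, so none passed 0.05. Between P09 and P23 the libraries overlapped (difference -0.68, exact permutation p = 0.114, adjusted p = 0.158).

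Mir208a went the other way and lost ground to Myh6. The log2 ratio of Mir208a to Myh6 was -2.92, -2.73, -2.94 and -3.15 at P01 and -3.81, -3.41, -2.56 and -3.56 at P04. It was -3.82, -3.80, -4.07 and -3.62 at P09 and -3.68, -3.79, -4.79 and -3.69 at P23. P09 and P23 lay below P01 without overlap, by 0.89 and 1.05 in the mean (exact permutation p = 0.0286, adjusted p = 0.0571 for both), and P04 overlapped with all other days. Without P23 replicate 6 the P23–P01 difference was -0.78.

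The ratio of Mir499 to Myh7b was lowest at P09. The P01 libraries averaged -0.30 ± 0.69 (SD, n = 4), those of P04 -0.65 ± 0.14, and the later days -1.04 ± 0.25 at P09 and -0.19 ± 0.30 at P23. P23 lay above P04 and P09 without overlap (differences 0.46 and 0.85, exact permutation p = 0.0286, adjusted p = 0.0571), and P01 overlapped with every other day.

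**Figure D4:**
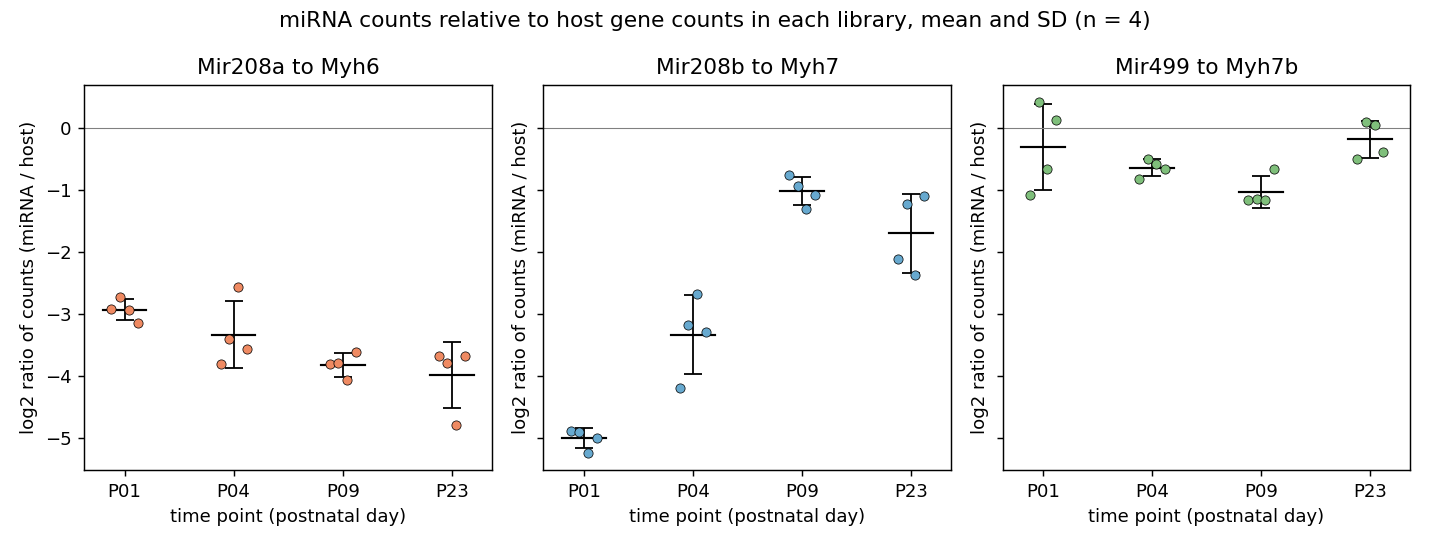
Log2 ratio of miRNA to host gene counts in each library (0.5 added to each count) for the 3 pairs, with means and SDs (n = 4). The Mir208b to Myh7 ratio climbs from a mean of -5.01 at P01 to -1.02 at P09, the Mir208a to Myh6 ratio goes down from -2.93 at P01 to -3.99 at P23, and the Mir499 to Myh7b ratio stays between -1.17 and 0.41.

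Both chr14 myosin genes share their locus with genes on the other strand. Mhrt, a long noncoding RNA known in mouse heart, lies at chr14:54968787-54974349 on the plus strand and overlaps Myh7 over 3666 bases. Its level was 7.69, 13.3, 15.1 and 9.60 CPM at P01, 21.0, 16.3, 20.5 and 22.4 CPM at P04, 28.1, 22.9, 27.9 and 22.9 CPM at P09 and 33.8, 32.4, 30.8 and 35.1 CPM at P23. The days did not overlap, and Mhrt rose in P09–P01 and P23–P01, with log2 fold changes of 1.16 ± 0.17 (edgeR, adjusted p = 1.74e-06) and 1.53 ± 0.17 (adjusted p = 5.63e-09).

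Gm31251, a predicted noncoding gene at chr14:54975264-55005006 on the plus strand, overlaps Myh7 over 19363 bases and covers Mir208b. It went from a mean of 4.27 CPM ± 0.729 (SD, n = 4) at P01 to 10.3 CPM ± 0.690 at P04 and 12.0 CPM ± 1.17 at P23, with a log2 fold change of 1.26 ± 0.20 in P04–P01 (edgeR, adjusted p = 2.79e-05). The strand setting of the counting is not given in the sources used here. Without strand, reads of Myh7 cannot be told apart from reads of Mhrt or Gm31251, nor how many reads were set aside as belonging to both. Both antisense genes rose from P01 to P23 while Myh7 fell. On the other strand of Myh6, Cmtm5 overlapped the 3′ end by 1125 bases with 4 counts in all libraries together, and Trpc4ap overlapped Myh7b by 31 bases with 851 counts.

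**Figure D5:**
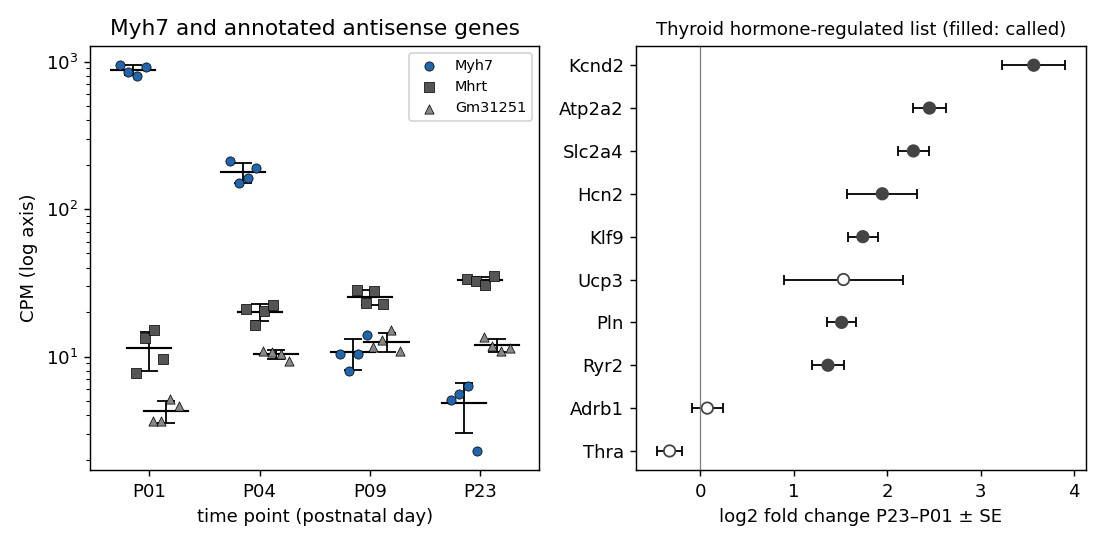
Left, CPM (log axis) of Myh7 and of the antisense genes Mhrt and Gm31251 in each library, with means and SDs (n = 4); Myh7 goes down from P01 to P23 while both antisense genes go up. Right, log2 fold changes P23–P01 ± SE (edgeR) of the 10 genes listed as regulated by thyroid hormone, of which 7 were called (filled) and all 7 rose.

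The windows from 250 bases before to 50 bases after the annotated start of Myh6 and Myh7 are shown because these neighbouring genes moved in opposite directions. Capitals mark GGAATG, the reverse complement of the MCAT motif CATTCC to which TEAD factors bind, and TATAAA.
Myh6, chr14:54966558-54966857, minus strand: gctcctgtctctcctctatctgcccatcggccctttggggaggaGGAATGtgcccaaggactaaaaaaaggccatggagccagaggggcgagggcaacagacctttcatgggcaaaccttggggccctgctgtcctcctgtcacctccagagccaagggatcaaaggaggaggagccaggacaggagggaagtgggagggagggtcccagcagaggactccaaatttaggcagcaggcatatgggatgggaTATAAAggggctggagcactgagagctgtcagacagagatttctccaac
Myh7, chr14:54994577-54994876, minus strand: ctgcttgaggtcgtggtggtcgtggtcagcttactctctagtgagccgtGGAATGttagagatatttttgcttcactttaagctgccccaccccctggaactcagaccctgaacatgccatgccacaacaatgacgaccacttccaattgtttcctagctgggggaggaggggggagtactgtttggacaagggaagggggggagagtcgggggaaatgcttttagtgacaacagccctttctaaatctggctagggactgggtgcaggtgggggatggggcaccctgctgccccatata
The Myh6 window lies inside the annotated span of the gene and belongs to a start downstream of the outermost one. The marked TATAAA begins at offset 1 from that start and so does not lie before it. Myh7 has another listed start, with a window at chr14:54994500-54994799 that begins after the marked GGAATG and held none of the motifs searched. On both strands, 14.7% of 32851 promoter windows of this length held CATTCC and 13.6% held TATAAA. The thyroid receptor half-site AGGTCA (16.3% of windows), the GATA motif AGATAA (11.2%) and the MEF2-like motif TAAAAATA (2.72%) were each found in the Myh7b window and in neither of the windows above, and no match overlapped another.

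Among the other myosin heavy chains, the skeletal genes were all but silent. The embryonic Myh3, the perinatal Myh8 and the adult fast Myh1, Myh2 and Myh4 had at most 5 counts in any library, and 4 of the 11 genes listed beside the group were tested. From P01 to P23, 2 of the 4 rose and 1 fell (13.5% and 16.6% of all tested genes), with a median log2 fold change of 0.84 against 0.00 over all genes. Myh14, a nonmuscle myosin, rose by 3.05 ± 0.39 (edgeR, adjusted p = 1.13e-07), from 0.975 CPM ± 0.933 (SD, n = 4) to 8.70 CPM ± 1.99. Myh11, the smooth muscle myosin, rose by 1.73 ± 0.38 (adjusted p = 3.58e-04). Myh10, a nonmuscle myosin of dividing and migrating cells, fell by 1.17 on the log2 scale (adjusted p = 1.31e-07), from 24.6 CPM ± 1.62 to 11.0 CPM ± 2.28, and Myh9 showed -0.06 ± 0.14 (adjusted p = 0.768).

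Other muscle miRNAs did not share the pattern of Mir208b. Of 8 genes listed, Mir133b and Mir206 were at 0 in all libraries and 5 were tested, of which 2 rose and none fell in P23–P01 (13.5% and 16.6% of all tested genes), with a median log2 fold change of 0.35. Mir486, which lies in an intron of Ank1 and is shared by muscle and red cells, rose by 1.42 ± 0.18 (edgeR, adjusted p = 6.29e-08), from 125 CPM ± 13.6 to 332 CPM ± 66.5. The erythroid markers rose in the same libraries, and their part in the Mir486 value was not tested. Mir1a-2 rose by 0.89 ± 0.16 (adjusted p = 3.33e-05), from 23.3 CPM ± 4.78 to 43.4 CPM ± 7.99. Mir1a-1, Mir133a-1 and Mir133a-2 were not called in any comparison. Mir1a-1 and Mir1a-2 encode the same mature miR-1a, as do the Mir133a copies for miR-133a, so the split of reads between copies is uncertain.

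Thyroid hormone acts on Myh6 and Myh7 through nuclear receptors, and its receptors, partners and transporters were measured as a list of 15, of which 12 were tested. In P23–P01 3 of them rose (Thrb, Rxrg and Slc16a10; 13.5% of all tested genes rose), and the median log2 fold change was 0.47. Thrb, the beta receptor, went from 0 to 1 counts per library at P01 to 15 to 34 counts at P23, with means of 0.0856, 1.17, 3.28 and 6.03 CPM over the 4 days. Thra, the alpha receptor, was at 28.9 CPM ± 2.98 at P01 and 23.0 CPM ± 2.81 at P23 and was not called (log2 fold change -0.33 ± 0.14, edgeR, adjusted p = 0.0467).

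Rxrg, a retinoid X receptor that pairs with thyroid receptors, rose from 0.496 CPM ± 0.282 at P01 to 2.57 CPM ± 0.221 at P09 and 9.47 CPM ± 2.14 at P23 (P23–P01 log2 fold change 4.23 ± 0.40, edgeR, adjusted p = 2.41e-10). Slc16a10, a transporter of thyroid hormone and aromatic amino acids, rose by 1.47 ± 0.25 (adjusted p = 1.50e-05).

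Of 10 cardiac genes known to be regulated by thyroid hormone, all were tested, 5 rose in P09–P01 (6.18% of all tested genes rose) and 7 rose in P23–P01 (13.5% of all), and none fell in either. The median log2 fold change was 1.01 in P09–P01 and 1.64 in P23–P01, against 0.02 and 0.00 over all genes. Atp2a2, the calcium pump of the sarcoplasmic reticulum, rose by 2.45 ± 0.18 in P23–P01 (edgeR, adjusted p = 8.96e-13), from 381 CPM ± 14.3 to 2086 CPM ± 369. Slc2a4, the insulin-regulated glucose carrier GLUT4, rose by 2.28 ± 0.17 (adjusted p = 9.95e-13). Klf9, a transcription factor, stood at 18.0 CPM ± 3.37 at P09 and at 63.7 CPM ± 6.13 at P23, later than the largest log2 step of Myh7. Pln, which restrains the calcium pump, rose by 1.51 ± 0.15 (adjusted p = 1.28e-09). Adrb1 and Thra, which stands in both lists, were not called in any comparison. Some of the 10 genes, such as Pln, also stand among the 12 cardiomyocyte markers. Of those markers 7 rose in P23–P01 (13.5% of all tested genes), with a median log2 fold change of 1.00. The list of 10 does not say in which direction the hormone acts on each gene.

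Of 17 regulators of myosin genes and targets of the miR-208 and miR-499 family, 16 were tested. In P23–P01 2 rose and 1 fell, with a median log2 fold change of 0.18, which is no larger a share than that of all tested genes (13.5% rose and 16.6% fell). Tead1, which binds the MCAT motif, rose by 1.09 ± 0.16 (edgeR, adjusted p = 1.02e-06), from 30.0 CPM ± 5.79 to 63.7 CPM ± 14.8. Sox6, a repressor of slow muscle genes, rose by 1.13 ± 0.26 in P04–P01 (adjusted p = 0.00264), from 3.90 CPM ± 1.27 to 8.47 CPM ± 1.17. Pdcd4, a target of miR-499, fell by 2.04 on the log2 scale in P23–P01 (adjusted p = 1.39e-09), from 24.6 CPM ± 4.51 to 6.12 CPM ± 2.33. Med13, a mediator subunit targeted by miR-208a in mice, showed 0.65 ± 0.14 (adjusted p = 2.20e-04), under the fold threshold. Purb, a repressor of Myh6, showed -0.62 ± 0.12 (adjusted p = 6.92e-05), also under it.

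The genes whose log2 CPM followed each member most closely over the 16 libraries were found among the 2902 tested genes with a mean count of at least 50. The libraries share 4 time points, so these correlations describe likeness over age and carry no test. For Myh6 these were Vldlr (Pearson r = 0.988), the pore subunit of the ATP-sensitive potassium channel Kcnj11 (0.982), Klhl31 (0.981), Fuca2 (0.980) and the fatty acid carrier Cd36 (0.978). For Myh7 they were Tbr1 (0.974), the myosin phosphatase subunit Ppp1r12a (0.968), Gm37194 (0.967), Nr2f6 (0.965) and Fer (0.965). For Mir208b they were 5 miRNA genes, Mir130b (0.984), Mir6240 (0.980), Mir382 (0.977), Mir501 (0.977) and Mir351 (0.977). Mir208a was followed less closely, by Mir221 (0.863) at best, and so were Myh7b (Rif1, 0.897) and Mir499 (Casc3, 0.775).

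Between the members themselves, Myh7 and Mir208b had r = 0.940 (Spearman rho = 0.968, n = 16 libraries), Myh6 and Mir208a r = 0.739 (rho = 0.647), and Myh7b and Mir499 r = 0.375 (rho = 0.256). Myh6 and Myh7 had r = -0.958 (rho = -0.924). The order of the pairs from closest to least close was also the order of the size of their change over age, and as above these values describe 4 days and carry no test.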

How the data were processed

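Total RNA of the ventricles was made into libraries with the SMARTer smRNA-Seq kit, which has no molecular identifiers. Per their processing notes the authors used bcl2fastq, Trimmomatic, STAR, featureCounts, DESeq2 and GRCm38.p6, and the deposited values are whole-number counts per gene, not normalized. The sources used here give no versions, annotation release, strand setting or treatment of multiply matching reads. Of the value columns, 1 was not used. The 16 libraries were fitted together with edgeR 4.0.16 in R 4.3.3 (TMM, filterByExpr set to a count of 10 and a total of 15, robust glmQLFit, glmQLFTest). Adjustment was by Benjamini-Hochberg over 10742 genes, and SEs came from the fold change and the F statistic. The fit was tested on simulated data.

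The Myh7 share was planned per length, but exon lengths were not used here, so shares are of counts. The Myh7 share and the ratios were compared by exact permutation tests (numpy 2.4.6). For the miRNA-to-host ratios 0.5 was added to each count, and nothing was added for the shares or the ratio of Myh7 to Myh6. Libraries of one day differed beyond sampling noise in all 24 pairs, and the study's methods give 4 hearts per day. Symbols were found for 53620 of 53801 identifiers. The genes named were the members, the 5 genes most correlated with each (all 5 for Myh6, Myh7 and Mir208b, the closest for the others), genes overlapping a member and up to 4 called genes of each list. Uncalled list genes that stand beside them were chosen after their values were seen. The members and lists were chosen with earlier results of these data known. The alternatives were DESeq2 1.42.0, other scalings, no filter, a fit of 2 days, thinning, a replicate block, another pseudocount and leaving out each library. The result of 1 listed gene is not reported here.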

Additional observations from a re-analysis of the deposited data

Results flagged for a closer look

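Single libraries stood apart from the other 3 of their day in 3 of the sets of 4 values by Dixon's test at the 95% level, where chance alone marks about 1 in 20 sets. Screened were the CPM of each of the 6 genes, the Myh7 share and the 3 miRNA-to-host ratios on every day, so some flags are expected by chance. Mir208b at P23 was 2.33 CPM in replicate 5 against 0.984 to 1.13 CPM in the others, at 10 counts against 3 to 5. The log2 ratio of Mir208a to Myh6 at P23 was -4.79 in replicate 6, against -3.79 to -3.68 in the others. The log2 ratio of Mir499 to Myh7b at P09 was -0.66 in replicate 5, against -1.17 to -1.15 in the others.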

How the results depend on the processing

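Of 834 recomputed fold changes of the 6 genes, 798 kept their direction and their side of the thresholds. This total includes, for each library left out, comparisons that do not hold its day and could hardly change, so it overstates the stability. The direction was kept by 159 of 162 miRNA-to-host ratios and by all 48 Myh7 shares and 48 log2 ratios of Myh7 to Myh6 without 1 library. No miRNA-to-host ratio had passed its adjusted p threshold with all libraries, so for these ratios the count speaks to direction alone. DESeq2, scaling on nuclear protein-coding genes and the fit of 2 days changed no call. Scaling on miRNA genes moved the median of all genes by -0.18 to 0.80 on the log2 scale and called 5 genes in P09–P01 in place of 3. Under it the sign turned for Myh7b in P09–P04 (0.17) and for Mir499 in P09–P01 (0.10) and P23–P01 (0.12), none of them called. Scaling on cardiomyocyte markers, chosen after the data were seen, turned the sign of Mir499 in P04–P01 (-0.32) and P23–P09 (-0.15), of Mir208a in P09–P04 (-0.31), P23–P09 (-0.092), P23–P04 (-0.40) and P23–P01 (-0.078), of Myh6 in P23–P09 (-9.5e-04) and of Myh7b in P09–P01 (-0.66). The cause was not tested, but these scalings by construction subtract the change of the genes they rest on. Thinned to the shallowest library, 1 gene was called in P23–P09 in place of 2. Myh7, with 7 to 28 counts per P23 library before thinning, lost its call. Mir208b, with 3 to 10 such counts, kept its call, and why Myh7 lost its call was not tested. With no filter, Mir208a was also called in P09–P01 (0.96). Without 1 library, Mir499 in P04–P01 ranged from -0.13 to 0.30, its ratio to Myh7b in P23–P01 from -0.14 to 0.36 and the Mir208a to Myh6 ratio in P23–P09 from -0.26 to 0.11, and the number of genes called in P09–P01 was 3 or 4. The P01 and P23 columns share numbers that did not pair the libraries (correlation of deviations -0.02 to 0.03 for equal numbers), and a fit of P01 and P23 with the replicate block called the same 4 genes, with log2 fold changes of -7.51 for Myh7 and 2.03 for Myh6. The depth limits Mir208b, Mir499 and Myh7 at P23, which rest on 3 to 44 counts per library.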

Other observations

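A list of 8 genes set together for the fetal or stressed heart also held genes of the mature heart, such as Tnni3 and Tnnt2, so its count does not describe a fetal pattern. All were tested, and 3 rose (Tnni3, Acta1 and Actc1) and 1 fell in P23–P01 (13.5% and 16.6% of all tested genes), with a median log2 fold change of 0.39 against 0.00 over all genes. The gene that fell was Tnni1, the slow skeletal troponin I of the fetal heart, at 212 CPM ± 12.1 (SD, n = 4) at P01, 171 CPM ± 20.05 at P04, 56.5 CPM ± 5.76 at P09 and 0 to 2 counts per library at P23. Its largest fall on the log2 scale lay between P09 and P23 (log2 fold change -7.99 ± 0.28, edgeR, adjusted p = 2.60e-19), whereas that of Myh7 lay between P04 and P09. The adult cardiac troponin I, Tnni3, rose by 1.46 ± 0.14 in P23–P01 (adjusted p = 2.13e-10). Acta1, skeletal actin, rose from 6.56 CPM ± 1.33 at P01 to 28.9 CPM ± 6.18 at P23 (log2 fold change 2.12 ± 0.22, adjusted p = 9.98e-09). Nppa, the atrial natriuretic peptide, was 85.5 to 107 CPM at P01, 19.0 to 43.1 CPM at P04, 28.3 to 186 CPM at P09 and 23.7 to 67.4 CPM at P23, with its widest spread among the P09 libraries.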
